A study of Mus musculus with 4 samples.

Results

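The cells described here were cardiomyocytes among the cells of mouse embryos that had expressed Cre from the Tbx1 locus or descended from a cell that had. They were chosen by raw counts of unique molecular identifiers (UMIs, 1 per captured transcript molecule): a barcode was a member with at least 10 UMIs of Myl7, at least 5 of Tnnt2, at most 2 of Epcam and at most 2 of Cdh5 and Pecam1 together. Of 14243 barcodes, 229 met the rule, namely 31 of 1434 (Ctrl) and 19 of 1090 (cKO) at E8.5, and 114 of 5453 (Ctrl) and 65 of 6266 (cKO) at E9.5. Where 4 values are listed without names below, they follow this order. Since the rule read the same cells, the levels of Myl7 and Tnnt2 and the contrast of the members with other cells are given as a description and support nothing.

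The study used droplet single-cell RNA sequencing of the 3′ transcript end on sorted GFP-positive, DAPI-negative cells of Swiss Webster embryos, with 1 library per group and cells of several embryos in each. Control (Ctrl) embryos were Tbx1Cre/+;Rosa26-GFPflox/+. Conditional knockout (cKO) embryos were Tbx1Cre/flox and carried the same Rosa26-GFPflox reporter, so that Cre removed the floxed part of their only other Tbx1 copy. The Cre knock-in itself inactivates 1 Tbx1 copy, which the controls therefore lacked too, and Cre marks each cell in which the locus was ever active together with its descendants. At embryonic day (E) 8.5 the upper part of the body was taken, and at E9.5 the pharyngeal apparatus with the heart. The comparisons asked how the cardiomyocytes of this lineage differed without Tbx1 at each stage, and how those of the control differed between the stages.

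Cardiomyocytes contract through sarcomeres, in which thick filaments of myosin slide along thin filaments of actin, tropomyosin and the troponin complex, anchored at Z-discs by alpha-actinin, desmin and partner proteins. In the early embryo the heart tube grows by the addition of second heart field progenitors at its arterial and venous poles. These progenitors lie in the pharyngeal mesoderm, express Isl1 and switch on the contractile genes as they join the outflow tract, the right ventricle or the inflow region. Tbx1, a T-box transcription factor, is active in the progenitors and is low in beating muscle. Myl2 and Irx4 mark ventricular muscle, Nppa the working chambers, Sln and Nr2f2 the atria, and Sema3c, Rspo3, Wnt11 and Tnc the outflow tract.

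The sequences below are the RefSeq promoters (build GRCm38.p6, 250 bases before to 50 after the start) of 3 contractile genes, the rule gene Myl7 and the actin genes Actc1 and Acta1. They are shown because each holds a CArG box, the element named for its run of A and T between CC and GG, which serum response factor binds in muscle genes. The Myl7 window is chr11:5898733-5899032 on the minus strand, that of Actc1 is chr2:114052826-114053125 on the minus strand, and that of Acta1 is chr8:123894726-123895025 on the minus strand. Each is written 5′ to 3′ with the CArG box in capitals.
Myl7: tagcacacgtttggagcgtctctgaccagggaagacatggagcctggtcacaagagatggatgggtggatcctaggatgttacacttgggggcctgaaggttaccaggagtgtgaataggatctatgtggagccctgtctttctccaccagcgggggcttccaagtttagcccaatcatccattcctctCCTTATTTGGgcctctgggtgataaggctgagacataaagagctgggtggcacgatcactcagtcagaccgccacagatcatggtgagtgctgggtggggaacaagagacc
Actc1: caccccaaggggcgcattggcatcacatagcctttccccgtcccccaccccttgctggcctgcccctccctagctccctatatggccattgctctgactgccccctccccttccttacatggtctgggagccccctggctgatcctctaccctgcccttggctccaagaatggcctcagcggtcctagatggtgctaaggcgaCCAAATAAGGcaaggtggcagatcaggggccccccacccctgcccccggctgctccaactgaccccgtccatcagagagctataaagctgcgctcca
Acta1: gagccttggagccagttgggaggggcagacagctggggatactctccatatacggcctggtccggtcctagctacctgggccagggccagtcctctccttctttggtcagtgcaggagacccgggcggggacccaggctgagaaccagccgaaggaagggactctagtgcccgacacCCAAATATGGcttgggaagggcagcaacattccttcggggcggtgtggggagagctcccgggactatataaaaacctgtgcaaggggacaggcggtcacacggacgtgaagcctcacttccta

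The capitals begin 61 bases before the start of Myl7, 47 before that of Actc1 and 73 before that of Acta1. Both strands were searched, with no mismatch allowed, and the CArG pattern is its own reverse complement. A gene can have several RefSeq promoters. Of all 32851 promoters, 1.63% held the box, against 5 of 27 promoters of the thin filament and Z-disc list, 3 of 11 of the thick filament list and 0 of 9 of the outflow tract list. The windows of Acta2 and Des held no exact match. Near matches, such as ccctatatgg and ccttgtttgg in the Acta2 window, were not counted. The MEF2 site was in 0.557% of all promoters and in 2 of the thick and 2 of the thin filament promoters. The T-box core AGGTGT was in 13.7% of all and in 5 of the thin filament promoters, the GATA letters AGATAA in 11.2% and 5, and the NKX2-5 letters TNAAGTG in 11.5% and 1. A match describes letters and is not a bound site.

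The libraries held 25391654 to 104773150 UMIs, with a median of 15888 to 23883 per barcode. Levels are UMIs per 1000000 (UPM) of the summed UMIs of a group of cells, over the 27514 genes that both deposited gene tables listed. The cKO E9.5 library was counted on a table of 31053 genes and the other 3 on one of 27998, so that at E9.5 the genotype, the library and the gene table cannot be told apart. At E8.5 genotype and library cannot be told apart, and neither can stage and dissection between E8.5 and E9.5. No value has a replicate, and all intervals (95%) cover counting error only. Pairs of libraries shared 2 to 55 cell barcodes, and no member's barcode was a member in another library. Tbx1 itself was at 49.8 (Ctrl) and 56.9 UPM (cKO) at E8.5 and at 23.2 (Ctrl) and 23.3 UPM (cKO) at E9.5 in the cardiomyocytes, and at 87.2, 119, 105 and 136 in the other cells in that order. The floxed exons are not given in the sources used here, so these 3′-end counts do not check the labels.

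The median member had 16767, 24100, 15417 and 17145 UMIs, against 17272, 23878, 16584 and 15864 in the other cells. Members carried a median of 81, 158, 110 and 110 UMIs of Myl7. Near the limits, 7 control and 5 cKO members held 10 to 14 Myl7 UMIs at E9.5, none at E8.5, and 0 to 5 barcodes per library missed the rule with 5 to 9. With 5 to 7 Tnnt2 UMIs there were 1 to 8 members per library, and 4 to 10 barcodes had 2 to 4. The limit on Epcam left out 1 barcode in each E9.5 library, and that on Cdh5 and Pecam1 none.

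At E9.5 cardiomyocytes were a smaller share of the barcodes in cKO than in Ctrl. They made up 2.09% (114 of 5453, Wilson interval 1.74 to 2.51%) of Ctrl and 1.04% (65 of 6266, Wilson interval 0.815 to 1.32%) of cKO, a difference of -1.05 percentage points (Newcombe interval -1.52 to -0.605). At E8.5 they were 2.16% (31 of 1434, Wilson interval 1.53 to 3.05%) of Ctrl and 1.74% (19 of 1090, Wilson interval 1.12 to 2.71%) of cKO, a difference of -0.419 points (interval -1.51 to 0.735), which was not detectable at this depth. Such shares depend on the dissection and the GFP sort, and with 1 library per group the difference cannot be set against the spread between embryos.

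The label was checked against markers. Actc1, the cardiac alpha-actin, was at 2584 (Ctrl) and 5269.8 UPM (cKO) at E8.5 and at 3970.1 (Ctrl) and 2756 UPM (cKO) at E9.5, and Myl4, the atrial essential light chain of the embryonic heart, at 2496 (Ctrl) and 3585 UPM (cKO) at E8.5 and at 4206 (Ctrl) and 4052 UPM (cKO) at E9.5. In the other cells Actc1 stood at 9.69 to 15.7 UPM and Myl4 at 7.41 to 23.4. Nkx2-5, the homeobox factor of the cardiac lineage, had a UMI in 96.4, 94.7, 97.1 and 95.2% of members after every cell had been thinned at random to 10000 UMIs, against 9.91, 10.2, 11.6 and 5.49% of other cells. Thinning left out 3, 0, 12 and 3 members that were shallower.

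Markers of other cell types were summed in the members and in the other cells. The 7 blood genes summed to 0, 0, 3.23 and 2.5 UPM in members and 0.85, 0.514, 69.2 and 5.47 in other cells. The 6 epithelial genes summed to 11.5, 0, 7 and 1.66 against 16, 18, 172 and 44.3, and the 5 neural crest genes to 9.58, 4.38, 8.08 and 13.3 against 30.1, 32.9, 36.2 and 29.1. The limits of the rule on Epcam, Cdh5 and Pecam1 hold down the epithelial and endothelial sums, which therefore check nothing for those genes. The skeletal muscle regulators Myf5, Myod1 and Myog were at 0 in each library, as were Cdh1, Foxa2, Sox1 and Foxd3. The 7 endothelial genes summed to 144, 78.8, 142 and 107 UPM against 282, 254, 218 and 92.7 in other cells, with Egfl7 giving 66, 30, 205 and 94 of 75, 36, 263 and 129 UMIs. The 8 mesenchyme genes summed to 387, 322, 286 and 306 UPM against 694, 699, 589.9 and 743, led by Prrx2 at 322, 217, 216 and 185. The 5 epicardial genes summed to 72.8, 39.4, 40.4 and 27.4 against 44.9, 57, 62.3 and 47.3, with Wt1 at 0 to 2 UMIs, and the 6 neural genes to 47.9, 39.4, 90.5 and 44.1 against 33.7, 30.3, 51 and 62, led by Nes. The 7 branchiomeric muscle genes summed to 105, 96.3, 128 and 116 against 53.9, 64.8, 66.9 and 47.3, in part from Tcf21, which heart progenitors use too. Members were thus above the other cells in the branchiomeric list in all 4 libraries, in the neural list in all but cKO E9.5, in the endothelial list in cKO E9.5 and in the epicardial list in Ctrl E8.5.

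At E9.5, few genes of the cardiac lists were at least 2-fold apart between cKO and Ctrl cardiomyocytes. Those lower in cKO included the actin gene Acta1, the outflow tract gene Tnc, the transcription factor genes Hopx and Tbx3 and the ligand genes Fgf8 and Tgfb2, and those higher included the channel genes Hcn4 and Cacna1d. Across all genes with at least 20 UMIs in both sums together, 147 of 8633 were at least 2-fold higher in cKO with an interval that excluded 0 (1.7%), and 521 were at least 2-fold lower (6.03%). The median log2 ratio of these genes was -0.20, and -0.24 in the other cells. TMM scaling, which lines up the bulk of the genes, added 0.16 to each ratio and turned the counts into 224 higher and 294 lower, so that the higher share of both went from 22% to 43.2%. Acta1, Tgfb2, Ccna2 and Hk1 were among the genes that fell under 2-fold with it, and the interval of Tbx3 came to include 0. Of the 8633 ratios, 5674 lay below 0. List medians below are therefore read against -0.20, and each is followed by the median after the ratio of the other cells had been subtracted gene by gene. The E9.5 control also served as the later stage of the control comparison, so that both comparisons share its cells.

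**Figure D1:**
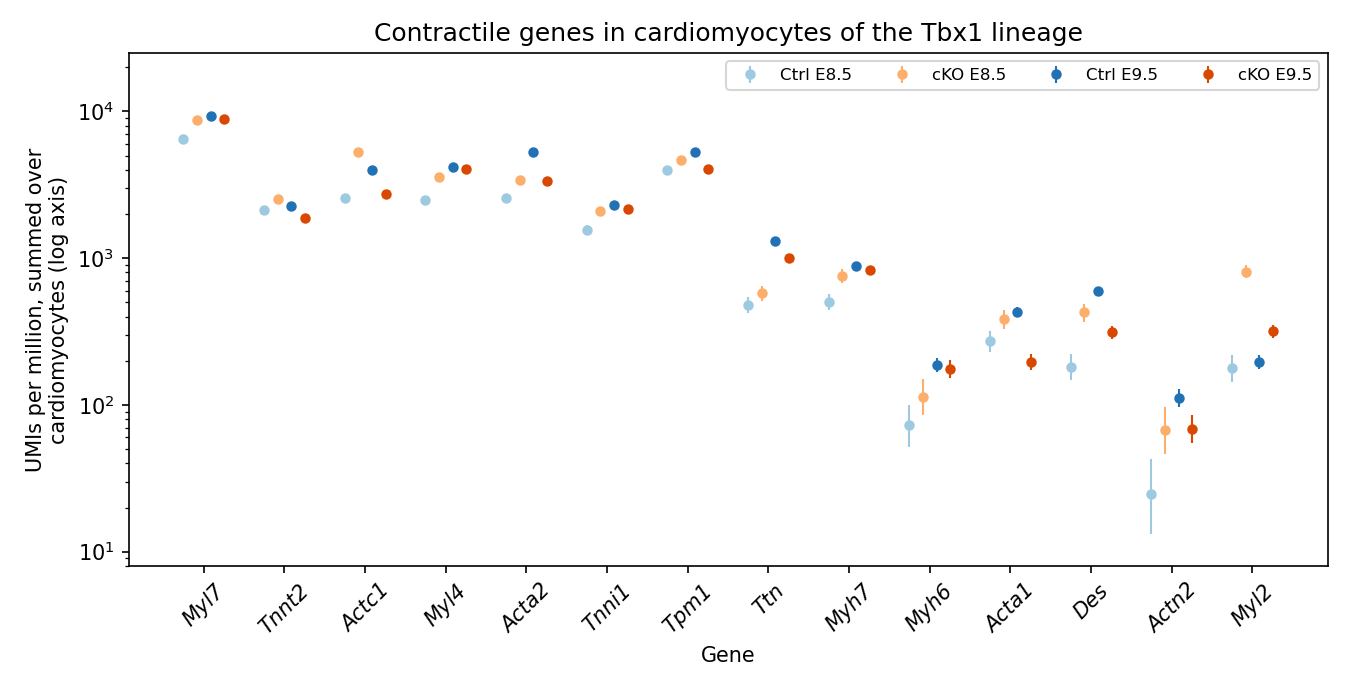
Levels of 14 contractile genes, in UPM summed over the cardiomyocytes of each library, on a log axis; error bars are exact 95% Poisson intervals. Acta2, Acta1, Des and Actn2 stand lower in cKO E9.5 than in Ctrl E9.5, and Myl2 is highest in cKO E8.5 at 809.

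Of the 23 thin filament and Z-disc genes, 22 were measured. None was 2-fold higher in cKO at E9.5, 1 was 2-fold lower, a share no higher than that of all genes (6.03%). 19 of the 22 ratios lay below 0, with a median of -0.34 (0.017 after subtraction). The gene past 2-fold was Acta1, the skeletal alpha-actin that the embryonic heart also uses (ENSMUSG00000031972, chromosome 8, 123891758 to 123894775), at 430.5 UPM in Ctrl and 196 in cKO, a log2 ratio of -1.13 (95% interval -1.35 to -0.92). It had a UMI in 43.1% of Ctrl and 27.4% of cKO cells after thinning, where other cells gave 0.459 and 0.237%. Acta1 was also lower in the other cells of cKO, by -1.65, at levels of 0.887 and 0.28 UPM.

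Acta2, the smooth muscle alpha-actin and an early actin of heart muscle (ENSMUSG00000035783, chromosome 19, 34240336 to 34255585), was at 5315 UPM in Ctrl and 3373 in cKO at E9.5. The log2 ratio was -0.66 (95% interval -0.71 to -0.60), and 0.012 in the other cells. Actc1 had 3970.1 UPM in Ctrl and 2756 in cKO and a ratio of -0.53 (95% interval -0.59 to -0.47), while the other cells went the other way with 0.32. Des, the desmin intermediate filament that ties Z-discs together (ENSMUSG00000026208, chromosome 1, 75360292 to 75368579), had 598 UPM in Ctrl and 312 in cKO and a ratio of -0.94 (95% interval -1.11 to -0.77), against 0.23 in the other cells. None of these 3 reached 2-fold. The 3 actin genes have near-identical coding sequences, so that reads can be shared between them where the 3′ ends do not tell them apart.

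Actn2, the alpha-actinin of the Z-disc, was at 112 UPM in Ctrl and 69 in cKO with a log2 ratio of -0.70 (95% interval -1.08 to -0.33). Nebl, a nebulin-like thin filament ruler, was at 331 UPM in Ctrl and 206 in cKO, with -0.68 (95% interval -0.90 to -0.47). Tpm1, the main cardiac tropomyosin, was at 5284 UPM in Ctrl and 4069 in cKO, with -0.38 (95% interval -0.43 to -0.33). The thin filament genes that were not lower were Csrp3, a muscle LIM protein, at 389 UPM in Ctrl and 494 in cKO with 0.35 (95% interval 0.19 to 0.50), Tnni3, the adult cardiac troponin I, at 92.1 UPM in Ctrl and 132 in cKO with 0.52 (95% interval 0.20 to 0.84), and Tcap, with 0.41 (95% interval -0.14 to 0.95). Tnni3 was unevenly spread, with 21.1% and 29.6% of its UMIs in 1 cell of Ctrl and cKO.

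The thick filament showed less. Of its 10 genes, all measured, none was 2-fold higher or lower, and the median was -0.073 (0.22 after subtraction), above that of all genes. Myh7, the beta-myosin heavy chain, was at 882 UPM in Ctrl and 835 in cKO, and Myh6, the alpha-myosin heavy chain, at 188 UPM in Ctrl and 176 in cKO. Their log2 ratios were -0.08 (95% interval -0.19 to 0.035) and -0.093 (95% interval -0.35 to 0.16), both intervals including 0. Titin (Ttn), which spans the distance from Z-disc to M-line, was at 1317 UPM in Ctrl and 1001 in cKO, with -0.40 (95% interval -0.50 to -0.30). Myl2, the ventricular regulatory light chain (ENSMUSG00000013936, chromosome 5, 122092724 to 122113473), was higher in cKO in the summed UMIs, at 196 UPM in Ctrl and 319 in cKO, with 0.70 (95% interval 0.49 to 0.91). The 3 highest cells held 50.8% of its UMIs in Ctrl and 54.8% in cKO, which the interval does not cover. After thinning, 34.3% of Ctrl and 35.5% of cKO members held a Myl2 UMI. Myl7 and Myl4, by contrast, had ratios of -0.065 and -0.054, whose sign flipped to 0.095 and 0.11 under TMM scaling.

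Smooth muscle genes, which outflow tract myocardium shares, had no member past 2-fold at E9.5. Of the 6 listed, 4 were measured and all lay below 0, with a median of -0.53 (-0.69 after subtraction). Tagln, the actin-binding transgelin, was at 872 UPM in Ctrl and 601 in cKO, with -0.54 (95% interval -0.67 to -0.41) against 0.85 in the other cells. Cnn1, the calponin that slows myosin in smooth muscle, was at 259 UPM in Ctrl and 179.7 in cKO, with -0.53 (95% interval -0.76 to -0.29). Myh11 and Mylk, the myosin and kinase of mature smooth muscle, were near 0, at 0 to 8 UMIs per library.

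In the outflow tract list at E9.5 all 8 genes were measured, 7 ratios lay below 0, 1 was at least 2-fold lower, none 2-fold higher, and the median was -0.45 (-0.27 after subtraction). Tnc, the matrix protein tenascin C (ENSMUSG00000028364, chromosome 4, 63959785 to 64047015), had 112 UMIs or 60.3 UPM in Ctrl and 23 or 19.1 in cKO, with -1.66. After thinning, 39.2% of Ctrl cells (exact interval 29.7 to 49.4%) and 11.3% of cKO cells (4.66 to 21.9%) held a Tnc UMI. Among the other cells, 4.09% in Ctrl and 1.95% in cKO did. Sema3c, a guidance cue of the outflow tract wall, was at 93.2 UPM in Ctrl and 55.7 in cKO, with -0.74 (95% interval -1.17 to -0.33).

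Isl1, the LIM homeobox factor of second heart field progenitors (ENSMUSG00000042258, chromosome 13, 116298270 to 116309688), was at 236 UPM in Ctrl and 134 in cKO, with -0.82 (95% interval -1.09 to -0.55) and -0.92 in the other cells. It was detected in 68.6% of Ctrl and 54.8% of cKO cardiomyocytes after thinning (58.7 to 77.5% and 41.7 to 67.5%), intervals that overlap. Rspo3, a WNT enhancer, went the other way at 42 UPM in Ctrl and 81.5 in cKO, with 0.96 (95% interval 0.51 to 1.40), and the other cells had 1.10. Bmp4 was at 253 UPM in Ctrl and 200.5 in cKO, with -0.33 (95% interval -0.56 to -0.11). Tdgf1, a Nodal coreceptor of the early outflow tract, and Wnt11, a non-canonical WNT, had -0.093 and -0.034, with intervals that included 0.

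**Figure D2:**
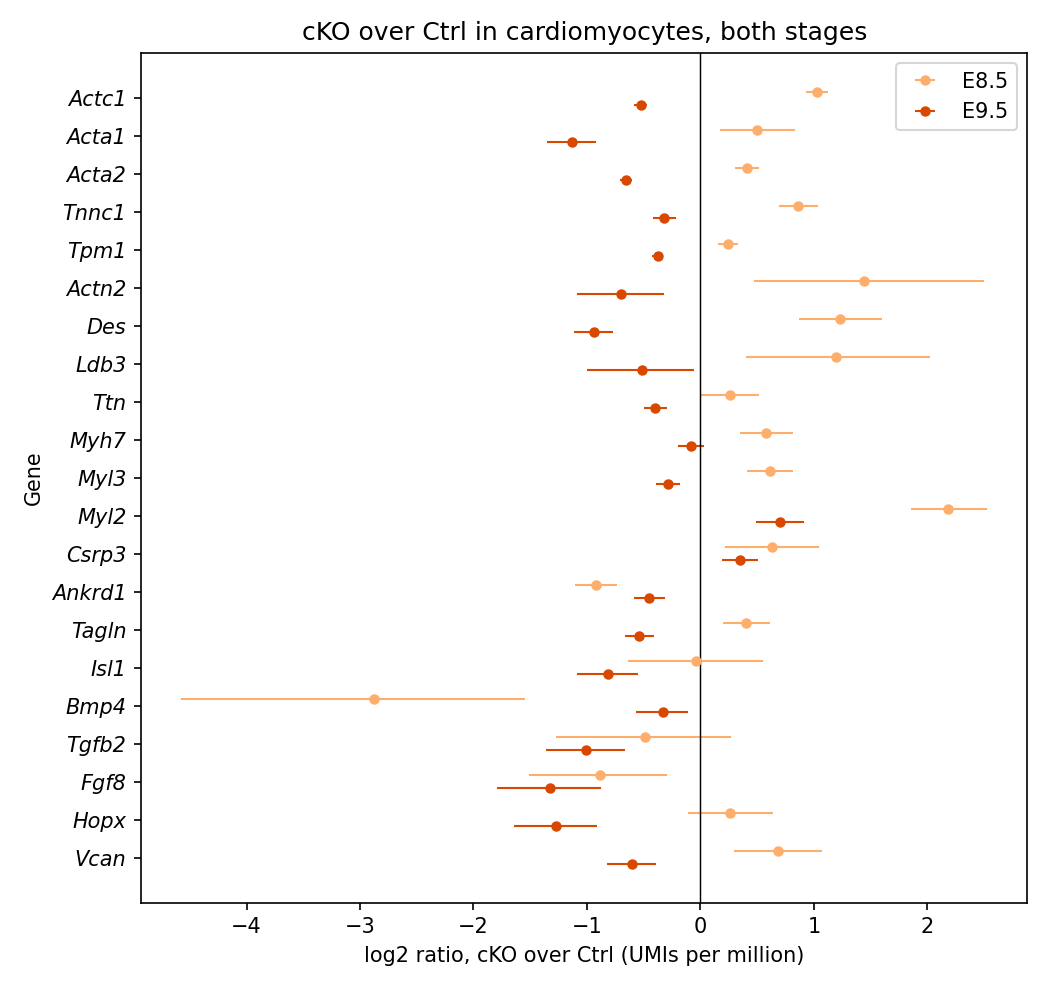
Log2 ratio of cKO over Ctrl in the cardiomyocytes at E8.5 (light) and E9.5 (dark) for 21 genes, with exact conditional 95% intervals that cover counting error. Actc1, Acta1, Acta2, Actn2 and Des lie above 0 at E8.5 and below 0 at E9.5, while Myl2 lies above 0 at both stages, at 2.18 and 0.70.

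Among the 21 cardiac transcription factors, 19 were measured at E9.5, with 2 at least 2-fold lower in cKO, none higher, and a median of -0.21 (0.19 after subtraction), close to that of all genes at -0.20. Hopx, a homeodomain-only cofactor that restrains serum response factor, was at 163 UPM in Ctrl and 67.4 in cKO, with -1.27 (95% interval -1.64 to -0.91) against -0.19 in the other cells. It was detected in 60.8% of Ctrl and 30.6% of cKO members after thinning, with intervals of 50.6 to 70.3% and 19.6 to 43.7% that do not overlap. Tbx3, a T-box repressor of chamber genes, rested on 25 and 6 UMIs, with -1.43 (95% interval -3.01 to -0.11). Nkx2-5, Gata4, Gata6, Hand2 and Mef2c had ratios of -0.16, -0.17, -0.13, -0.0038 and -0.15, none past 2-fold.

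Hand1, a basic helix-loop-helix factor of the left ventricle and outflow region, was higher in cKO at 65.7 UPM in Ctrl and 112 in cKO, with 0.77 (95% interval 0.41 to 1.14) and -0.54 in the other cells. It had a UMI in 24.5% of Ctrl and 41.9% of cKO members (16.5 to 34% and 29.5 to 55.2%), which overlap. In the calcium and excitation list, 10 of 15 genes were measured, 2 were 2-fold higher and 1 lower. Hcn4, the pacemaker channel of the inflow region, had 5 UMIs in Ctrl and 24 in cKO, with 2.89 (95% interval 1.47 to 4.64). It was also more frequent in the other cells of cKO, with a UMI in 0.104% in Ctrl and 0.656% in cKO after thinning. Cacna1d, a calcium channel, had 15 and 24, with 1.30 (95% interval 0.31 to 2.34), and Slc8a1, the sodium-calcium exchanger, 43 and 11, with -1.34 (95% interval -2.44 to -0.36). Pln, the phospholamban that restrains the calcium pump, was at 53.9 UPM in Ctrl and 91.5 in cKO, with 0.76 (95% interval 0.36 to 1.17).

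Of the 18 progenitor genes, 12 were measured at E9.5, 1 was 2-fold lower in cKO and none higher, with a median of -0.47 (0.14 after subtraction). Fgf8, a ligand of the second heart field, was at 108 UPM in Ctrl and 43.3 in cKO, with -1.32 (95% interval -1.79 to -0.88), and the other cells had -2.04. Fgf10 had 32 and 10 UMIs and -1.05 (95% interval -2.24 to 0.0085). Aplnr, the apelin receptor, had 16 and 1 UMIs, too few to be measured. In the FGF list as a whole 9 of 11 genes were measured and Fgf8 alone passed 2-fold, with targets such as Dusp6, an ERK phosphatase, at -0.50 and Etv4 at 0.13.

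The BMP list had 12 of 13 genes measured and none past 2-fold at E9.5, with a median of -0.09 (0.13 after subtraction). The WNT list had 9 of 10 measured and none past 2-fold, with a median of -0.034 (0.14 after subtraction). Of neuregulin and its receptors, Erbb2 and Erbb4 were measured, with -0.11 (95% interval -1.14 to 0.87) and 0.43 (95% interval -0.71 to 1.56), and Erbb3 was at 0 in each library. In the atrioventricular canal list, whose 6 genes were all measured, Tgfb2, a growth factor of the cushions, was lower at 155 UPM in Ctrl and 77.4 in cKO, with -1.004 (95% interval -1.36 to -0.66), Tbx3 was lower as above, and Has2, the hyaluronan synthase, was higher at 17 and 30 UMIs, with 1.45 (95% interval 0.54 to 2.40).

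Matrix genes moved in both directions at E9.5. Of 14, 13 were measured, 2 were 2-fold higher, 1 lower, and the median was -0.017 (-0.046 after subtraction). Hapln1, a link protein of the cardiac jelly, was at 59.3 UPM in Ctrl and 18.3 in cKO, with -1.70 (95% interval -2.43 to -1.03) and -1.17 in the other cells. Vcan, the versican that it binds, was at 311 UPM in Ctrl and 205 in cKO, with -0.61 (95% interval -0.83 to -0.39) against 0.18 in the other cells. The higher genes were Has2 and the adhesion molecule Ncam1, which had 19 and 26 UMIs and 1.08 (95% interval 0.17 to 2.01).

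Retinoic acid genes had 5 of 7 measured at E9.5 and 1 past 2-fold, the retinoic acid binding protein Crabp1, at 114 UPM in Ctrl and 265 in cKO with 1.22 (95% interval 0.96 to 1.47). Of its 319 UMIs in cKO, 59.9% lay in 1 cell, and without the 3 members of cKO and 4 of Ctrl whose totals were above 2 times the median the ratio was -0.10. Meox1, a somite gene in the mesenchyme list, rested on 19 and 34 UMIs with 1.47 (95% interval 0.62 to 2.36), and the other cells had 1.61. In the mesenchyme list 6 of 8 genes were measured, with summed levels of 286 and 306 UPM, and its part in these results was not tested. In the neural list Nes, an intermediate filament gene, was 2-fold lower in cKO at 79.2 UPM in Ctrl and 34.9 in cKO, with -1.18 (95% interval -1.71 to -0.68).

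Chamber genes gave 1 call at E9.5. The ventricular list had 4 of 6 genes measured and none past 2-fold, the chamber list 5 of 7 and none, and the atrial and inflow list 9 of 10 and Hcn4 alone. Nppa was at 54.4 UPM in Ctrl and 91.5 in cKO, with 0.75 (95% interval 0.35 to 1.15), and 1 cell held 53.5% and 59.1% of its UMIs. Nr2f2, an orphan receptor of atrial muscle, was at 62.5 UPM in Ctrl and 87.3 in cKO, with 0.48 (95% interval 0.088 to 0.88). Both early heart keratins were measured and neither passed 2-fold in any comparison.

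Cell cycle genes had 19 of 19 measured at E9.5, 1 at least 2-fold lower and none higher, with a median of -0.50 (0.048 after subtraction). Ccna2, cyclin A2, was at 117 UPM in Ctrl and 58.2 in cKO, with -1.01 (95% interval -1.42 to -0.62), and the helicase genes Mcm2, Mcm3, Mcm4, Mcm5 and Mcm6 had -0.83, -0.89, -0.19, -0.84 and -0.86. Mki67 and Top2a were at 0.07 and 0.18, and Pcna, the replication clamp, was at 79.2 UPM in Ctrl and 129.8 in cKO, with 0.71 (95% interval 0.38 to 1.05). In the other cells Ccna2 had -0.78 and the same helicase genes -0.96, -0.73, -0.70, -0.75 and -0.85. The inhibitor Cdkn1c, which was abundant at 2690.0 UPM in Ctrl and 2525 in cKO, had -0.091, and Cdkn1a had 11 and 23 UMIs with 1.69 (95% interval 0.60 to 2.87).

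In glycolysis all 13 genes were measured, with 1 higher, 2 lower and a median of -0.30 (0.13 after subtraction) at E9.5. Pfkl, the liver form of phosphofructokinase, was at 236 UPM in Ctrl and 98.1 in cKO, with -1.27 (95% interval -1.57 to -0.97) and -1.45 in the other cells, and Hk1, a hexokinase, had -1.03. Pgk1, phosphoglycerate kinase, stood at 195 (Ctrl) and 158 UPM (cKO) at E8.5 and at 58.7 (Ctrl) and 899 UPM (cKO) at E9.5, a ratio of 3.94 (95% interval 3.65 to 4.23) that the other cells shared at 3.81. Of the 11 muscle energy genes, 6 were measured and none passed 2-fold. Among them Cox6a2, a heart and muscle subunit of cytochrome oxidase, had 0.98 (95% interval 0.51 to 1.46) and Fabp3, the heart fatty acid binding protein, 0.89 (95% interval 0.54 to 1.25).

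By size alone, the 5 lowest in cKO at E9.5 were Fdx1l, Hspa14, Srp54b, Tonsl and Sept2, with log2 ratios of -6.61, -5.77, -5.43, -5.43 and -5.17, and the 5 highest were Timm8a1, Tfdp1, Pgk1, Cdh6 and Tpm3-rs7, with 5.53, 4.78, 3.94, 3.73 and 2.66. The other cells had -9.69, -5.20, -8.87, -4.16 and -5.38 for the first 5 and 5.27, 5.67, 3.81, 4.15 and 1.51 for the second. Srp54b was at 0 UMIs in cKO, so its value is a bound against 3 UMIs, and Fdx1l, Hspa14 and Tonsl had 1 to 3. The ratios had the same sign in the rest of the libraries, which were counted on different gene tables, and whether the table moved them was not tested.

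**Figure D3:**
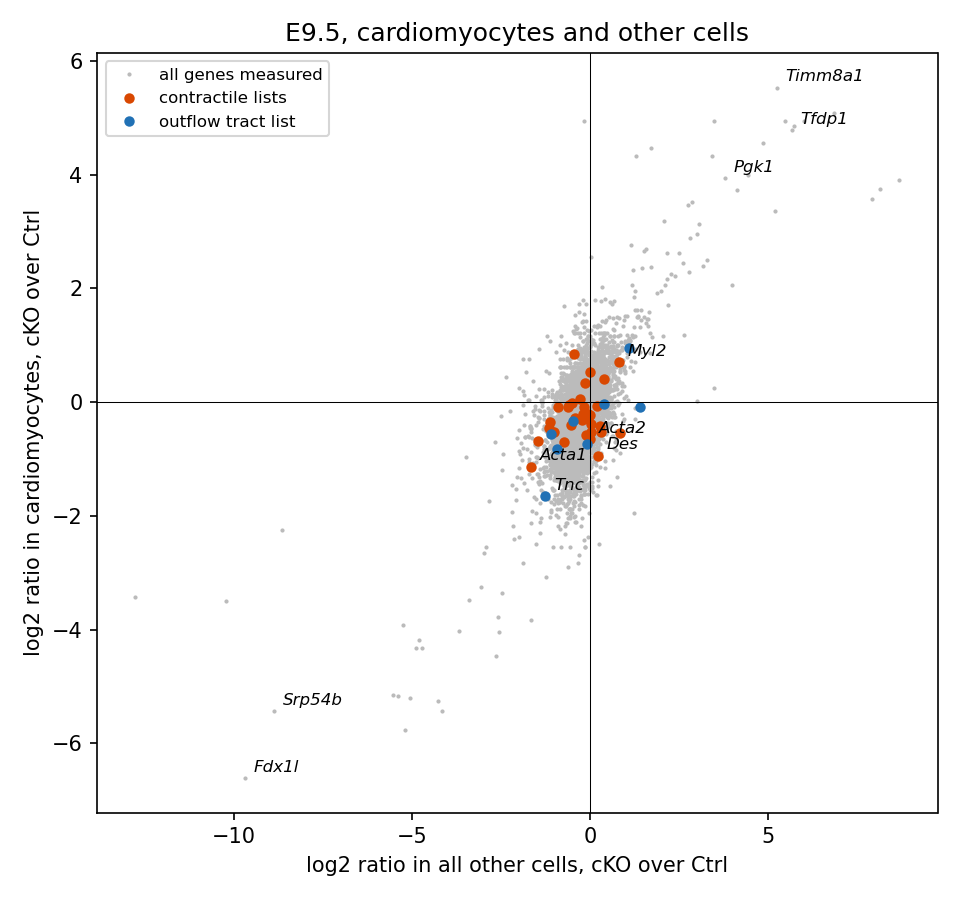
Log2 ratio of cKO over Ctrl at E9.5 in the cardiomyocytes (vertical) against the same ratio in all other cells (horizontal), each grey point a gene with at least 20 UMIs in the cardiomyocytes; the contractile lists are orange and the outflow tract list blue. The outlying genes such as Pgk1 and Srp54b lie far out on both axes, whereas Acta2 and Des lie below 0 in the cardiomyocytes with 0.012 and 0.23 in the other cells.

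After the ratio of all other cells had been subtracted, the 10 lowest at E9.5 were Tagln, Casq1, Tonsl, Myl9, Meis1, Sh3bp1, Des, Tnnt1, Hopx and Glipr2, with differences of -1.39, -1.37, -1.27, -1.22, -1.19, -1.19, -1.17, -1.12, -1.08 and -1.07. Tonsl rested on 3 UMIs in cKO. Its interval in the cardiomyocytes, -7.72 to -3.86, held the -4.16 of the other cells, so its difference was not resolved. Sh3bp1 rested on 8 UMIs in cKO. Casq1, the calsequestrin that stores calcium in the sarcoplasmic reticulum, was at 108 UPM in Ctrl and 39.9 in cKO, with -1.44 (95% interval -1.93 to -0.98). Myl9, a regulatory light chain of smooth muscle myosin, was at 1382 UPM in Ctrl and 741 in cKO, with -0.90 (95% interval -1.01 to -0.79) against 0.33 in the other cells. Meis1, a TALE homeobox factor, was at 127 UPM in Ctrl and 57.4 in cKO, with -1.14 (95% interval -1.55 to -0.75), and Tnnt1, the slow skeletal troponin T, at 75.4 UPM in Ctrl and 38.3 in cKO, with -0.98 (95% interval -1.49 to -0.49).

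The 10 highest after subtraction were Srp54b, Fdx1l, Phlda2, Chchd10, Pyy, Krt18, Afap1l1, Mt1, Hand1 and Nkx2-5. For Srp54b, at 0 UMIs in cKO, and Fdx1l, at 1, the size of the difference could not be resolved. The other 8 had differences of 2.20, 1.97, 1.52, 1.44, 1.42, 1.38, 1.31 and 1.23. For Srp54b, Fdx1l, Krt18, Afap1l1 and Nkx2-5 the ratio in the cardiomyocytes was itself below 0, so that they were not higher in cKO, and that in the other cells was lower still. Phlda2, an imprinted pleckstrin-homology gene, was at 55.5 UPM in Ctrl and 117 in cKO in cardiomyocytes, with 1.08 (95% interval 0.70 to 1.46) against -1.12 in the other cells. Pyy, peptide YY, was at 40.9 UPM in Ctrl and 82.3 in cKO, with 1.01 (95% interval 0.56 to 1.46), from 21 Ctrl and 19 cKO cells. Chchd10, a mitochondrial protein of cristae, was at 197 UPM in Ctrl and 255 in cKO, with 0.38 (95% interval 0.15 to 0.60).

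Between E8.5 and E9.5, control cardiomyocytes had 7 of 8 outflow tract genes and 6 of 22 thin filament and Z-disc genes at least 2-fold higher at the later stage, and lower Aplnr and Ifitm1. Of 7996 genes measured, 715 were at least 2-fold higher at E9.5 (8.94%) and 144 at least 2-fold lower (1.8%), with a median log2 ratio of 0.26 and 0.30 in the other cells. TMM scaling added -0.20 and gave 410 higher and 245 lower, the higher share going from 83.2% to 62.6%. Isl1 of the outflow tract list and Acta2 and Tcap of the thin filament list were among the genes that fell under 2-fold with it. The E8.5 library came from another dissection and held 31 members.

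In the thin filament and Z-disc list 22 genes were measured, 6 were 2-fold higher at E9.5 and none lower, with a median of 0.64 (0.91 after subtraction). The 6 were Acta2, Actn2, Csrp3, Tcap, Xirp1 and Des. Acta2 went from 2571 to 5315 UPM, with 1.05 (95% interval 0.97 to 1.13), Des from 182 to 598, with 1.72 (95% interval 1.41 to 2.03), and Actn2 from 24.9 to 112, with 2.17. In the other cells these ratios were 0.23, 1.52 and -0.78. Ankrd1, a stretch-responsive ankyrin repeat protein of the sarcomere, was the exception at 1479 UPM at E8.5 and 745 at E9.5, with -0.99 (95% interval -1.12 to -0.86), though 28% of its E8.5 UMIs were in 1 cell.

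The thick filament had 9 of 10 genes measured, 2 of them 2-fold higher, and a median of 0.80 (1.66 after subtraction). Myh6 was at 72.8 UPM at E8.5 and 188 at E9.5, with 1.37 (95% interval 0.88 to 1.89), and Ttn at 479 UPM at E8.5 and 1317 at E9.5, with 1.46 (95% interval 1.27 to 1.65), and the other cells had -0.26 and 1.40. Myl2 was an exception at 178 UPM at E8.5 and 196 at E9.5, with 0.14 (95% interval -0.19 to 0.48). In the calcium list Pln, with 1.64 (95% interval 0.66 to 2.81), was the 1 gene past 2-fold of 8 measured, and Atp2a2, the calcium pump that it restrains, had 0.70. Casq1 was at 15.3 UPM at E8.5 and 108 at E9.5, with 2.82 (95% interval 1.81 to 4.05) against -0.43 in the other cells.

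Of the 8 outflow tract genes, 7 were at least 2-fold higher at E9.5 and none lower, with a median of 1.97 (0.58 after subtraction). Bmp4 was at 80.5 UPM at E8.5 and 253 at E9.5, with 1.65 (95% interval 1.19 to 2.14), Sema3c at 21.1 UPM at E8.5 and 93.2 at E9.5, with 2.14 (95% interval 1.27 to 3.17), and Isl1 at 103 UPM at E8.5 and 236 at E9.5, with 1.19 (95% interval 0.78 to 1.63). The other cells had 1.53, 1.63 and 0.79. Tdgf1 was the member that did not pass, with 0.20 (95% interval -0.13 to 0.55). In the BMP list 12 of 13 genes were measured and 4 were 2-fold higher, the ligands Bmp2 and Bmp4 and the inhibitory Smad6 and Smad7, with 1.31, 1.65, 2.19 and 1.25. The median of the list was 0.73 (0.18 after subtraction).

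Among transcription factors 19 of 21 were measured and 5 were 2-fold higher at E9.5, where 8.94% of all genes were. The median was 0.75 (0.13 after subtraction). The 5 included Mef2a, Hand1, Isl1 and Srf, with Hand1 at 13.4 UPM at E8.5 and 65.7 at E9.5 and 2.29 (95% interval 1.21 to 3.64). The atrioventricular canal list had 3 of 6 higher, Bmp2, Msx2 and Tgfb2, with a median of 1.12 (-0.29 after subtraction). The progenitor list had 13 of 18 measured, 2 higher, Isl1 and Osr1, and 3 lower, among them Tbx1 and Aplnr, with a median of -0.39 (-0.78 after subtraction) against 0.26 for all genes. Aplnr was at 61.3 UPM at E8.5 and 8.62 at E9.5, with -2.83 (95% interval -3.79 to -1.92), and Tbx1 at 49.8 UPM at E8.5 and 23.2 at E9.5, with -1.10 (95% interval -1.84 to -0.34) against 0.27 in the other cells. Tbx1 was in 35.7% of E8.5 and 22.5% of E9.5 control members, below the 52.3 and 54.6% of other cells.

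Matrix genes had 4 of 13 measured genes higher at E9.5, Col1a1, Col3a1, Itga6 and Sparc, and 1 lower, Hapln1, with -1.003 (95% interval -1.47 to -0.53). The median of the list was 0.49 (-0.17 after subtraction), and 8.94% of all genes were higher. Sparc was at 144 UPM at E8.5 and 379 at E9.5, with 1.40 (95% interval 1.06 to 1.76), and 1.82 in the other cells. Cdkn1c was at 1217 UPM at E8.5 and 2690.0 at E9.5, with 1.14 (95% interval 1.03 to 1.27), and Pcna at 178 UPM at E8.5 and 79.2 at E9.5, with -1.17 (95% interval -1.55 to -0.78), the 1 cell cycle gene of 19 past 2-fold. Other genes past 2-fold were Sfrp5, a WNT antagonist, with -1.71, Nkd1, a WNT feedback inhibitor, with 1.74, Nppb with -2.34, of whose E8.5 UMIs 3 cells held 96%, Nppa with 1.51, Crabp1 with -1.20, Aldh1a2 with -1.62, Cox7a1 with -1.08, Ckb with 1.03, Pgam2 with 1.41, Hk1 with 2.63 and Pgk1 with -1.73. Of the marker lists of other cell types, genes past 2-fold beside Aldh1a2 included Kdr, Nes and Pdgfra, with 2.49, 1.28 and -1.12.

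By size, the 5 lowest at E9.5 were Tpm3-rs7, Ifitm1, Zfp710, Aplnr and Igfbpl1, with -3.11, -2.99, -2.97, -2.83 and -2.83, and the 5 highest G0s2, Ssbp4, Cxcl12, Casq1 and Klhdc8b, with 3.49, 3.29, 3.14, 2.82 and 2.81. Zfp710 rested on 1 cell, which held 75.8% of its E8.5 UMIs. G0s2, an inhibitor of triglyceride breakdown, went from 7.66 to 86.2 UPM, and Ifitm1, an interferon-induced membrane protein, from 184 to 23.2. After subtraction of the other cells the 10 lowest were Zfp710, Lix1, Aplnr, Krt18, Tdrd12, Dusp9, Pyy, Tpm3-rs7, Cfc1 and Krt8, from -3.25 to -1.54. The 10 highest were Casq1, Actn2, Efnb2, Myl3, Hand1, G0s2, Myl7, Tnnc1, Atcayos and Chsy1, from 1.95 to 3.25. Of these, Myl3, Myl7 and Tnnc1 were under 2-fold in the cardiomyocytes, with 0.70, 0.51 and 0.62. The other cells had -1.69, -1.65 and -1.49 for them. Since Myl7 is a gene of the rule, its place here supports nothing. Krt8 and Krt18, keratins of the early heart tube, stood at 351 UPM at E8.5 and 274 at E9.5 and 489 UPM at E8.5 and 323 at E9.5 in cardiomyocytes, with 1.18 and 1.72 in the other cells.

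At E8.5, 6 of 21 thin filament and Z-disc genes and Myl2 were at least 2-fold higher in the 19 cKO cardiomyocytes than in the 31 of the control, and Bmp4, Crabp1 and Crabp2 were lower. Of 4911 genes measured, 162 were at least 2-fold higher in cKO (3.3%) and 112 at least 2-fold lower (2.28%), with a median of 0.0069. In the thin filament and Z-disc list 21 genes were measured, 6 were 2-fold higher and none lower, with a median of 0.61 (0.64 after subtraction). The 6 were Actc1, Tnni3, Actn2, Tcap, Ldb3 and Des. Actc1 was at 2584 UPM in Ctrl and 5269.8 in cKO, with 1.03 (95% interval 0.93 to 1.13), Des at 182 UPM in Ctrl and 427 in cKO, with 1.23 (95% interval 0.87 to 1.60), and Actn2 at 24.9 UPM in Ctrl and 67.8 in cKO, with 1.45 (95% interval 0.47 to 2.50). In the other cells these ratios were -0.69, 0.74 and -0.66. The 3 highest cells held 41.7% of the Actc1 UMIs in Ctrl and 55.1% in cKO. Tnni3 had 62.5% and 39.4% of its UMIs in 1 cell, and Tcap rested on 8 and 18 UMIs.

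In the thick filament list 9 genes were measured, all above 0, and 1 was 2-fold higher, with a median of 0.58 (1.12 after subtraction). Myl2 was at 178 UPM in Ctrl and 809 in cKO, with 2.18 (95% interval 1.85 to 2.53). Nppa, the atrial natriuretic peptide gene, was at 19.2 UPM in Ctrl and 107 in cKO, with 2.48 (95% interval 1.49 to 3.63), but 1 cKO cell held 83.7% of its UMIs. Acta1, Acta2, Tagln, Vcan and Tnnc1 were higher in cKO at E8.5 without reaching 2-fold, with 0.50, 0.41, 0.41, 0.68 and 0.86, and lower at E9.5, as the plot of both stages shows. Ankrd1 was lower at both, with -0.92 and -0.45.

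Bmp4 had 42 UMIs in Ctrl and 5 in cKO at E8.5, a ratio of -2.88 (95% interval -4.57 to -1.54), and was the 1 gene past 2-fold of the 5 outflow tract genes measured. After thinning, 13 of 28 Ctrl cells and 0 of 19 cKO cells held a Bmp4 UMI, and a count of 0 allows up to 15.8% of cells to hold one at that depth. At their full depth 51.6% of Ctrl and 21.1% of cKO members were positive, so that the 0 does not mean absence, and 8.89 and 11.2% of the other cells were positive after thinning. Crabp1 was at 262 UPM in Ctrl and 80.9 in cKO, with -1.70 (95% interval -2.26 to -1.16), and Crabp2 at 136 UPM in Ctrl and 35 in cKO, with -1.96 (95% interval -2.84 to -1.16), while the other cells had -0.36 and 0.016.

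Other listed genes past 2-fold at E8.5 were Aplnr at 32 and 13 UMIs, with -1.11 (95% interval -2.16 to -0.14), Itga6, a laminin receptor, with 1.41 (95% interval 0.23 to 2.72), Ccna2 with 1.12 (95% interval 0.47 to 1.80) and Mcm3 with -1.07 (95% interval -1.95 to -0.24). No gene past 2-fold was among the 14 transcription factors, 7 FGF, 4 WNT, 12 glycolysis or 4 smooth muscle genes measured. Mef2c was at 383 UPM in Ctrl and 562 in cKO, with 0.55 (95% interval 0.28 to 0.83), and Gata6 at 113 UPM in Ctrl and 199 in cKO, with 0.82 (95% interval 0.33 to 1.31). With fewer than 20 cKO members, no gene was named by size at this stage.

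Within each library the cardiomyocytes were not uniform. Summed over the 23 thin filament and Z-disc genes, single Ctrl E9.5 members ranged from 2334 to 80571 UPM with a median of 22830.1, and cKO E9.5 members from 3149.7 to 65592 with a median of 14485. At E8.5 the medians were 15613 in Ctrl and 22298 in cKO. Myl2 was concentrated in few cells: 16 of 31, 6 of 19, 65 of 114 and 38 of 65 members had none, and the 3 highest cells held 53.8, 61.9, 50.8 and 54.8% of its UMIs.

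**Figure D4:**
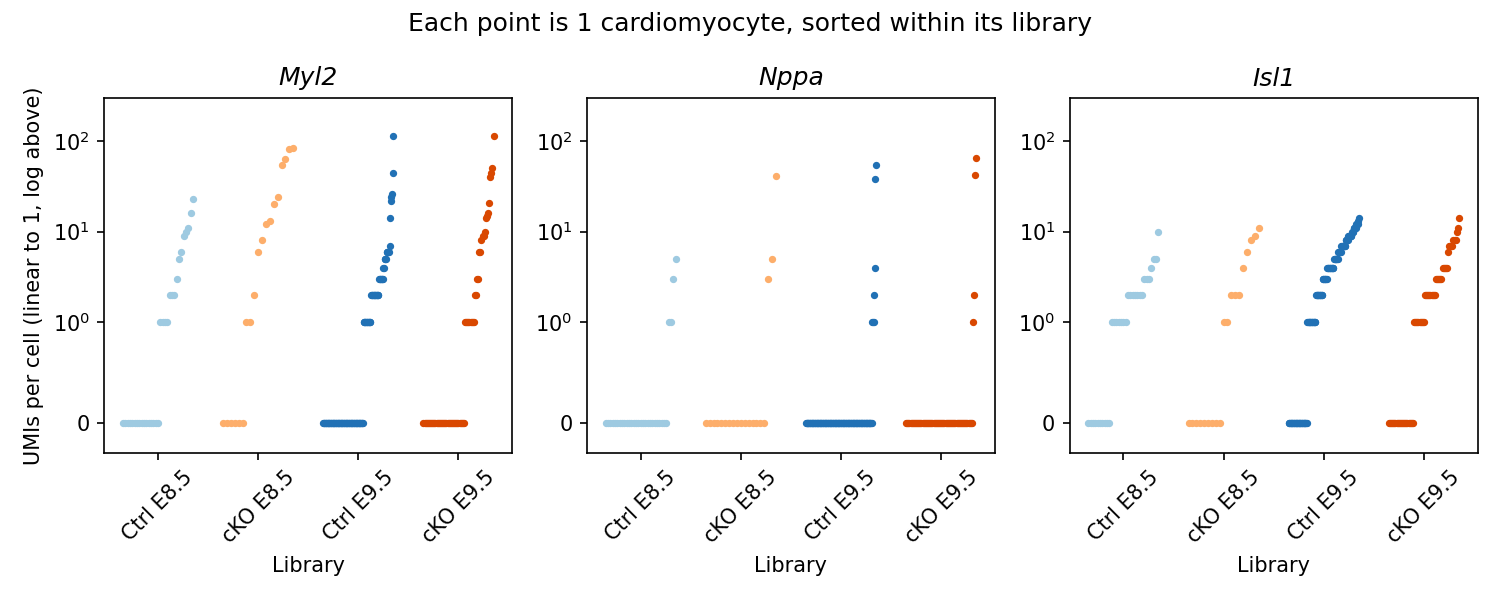
UMIs of Myl2, Nppa and Isl1 in each cardiomyocyte (points, sorted within a library), on an axis that is linear up to 1 and logarithmic above it. Most members have no Nppa, and 2 cells in each E9.5 library stand apart with over 30, while Isl1 is spread over many cells.

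At least 5 Myl2 UMIs were present in 7 of 31 control members at E8.5 (22.6%, Wilson interval 11.4 to 39.8%), 10 of 19 cKO members at E8.5 (52.6%, 31.7 to 72.7%), 15 of 114 control members at E9.5 (13.2%, 8.14 to 20.6%) and 14 of 65 cKO members at E9.5 (21.5%, 13.3 to 33%). The intervals of both genotypes overlap at each stage. The cKO members at E8.5 were also the deepest, with a median of 24100 UMIs against 16767, and after thinning 12 of 28 control and 10 of 19 cKO members held a Myl2 UMI. This limit is a point on a range and not a cell type, since 3, 1, 18 and 4 members lay at 3 to 7 UMIs.

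Members with at least 5 Myl2 UMIs carried more of other contractile genes than the rest of their own library. In Ctrl E9.5, Acta1 was at 1512 against 249 UPM, Myl3 at 2776 against 832 UPM, Tnni3 at 236 against 67.9 UPM and Myh7 at 1685 against 748 UPM. In cKO E9.5 the same genes were at 756 against 34.3 UPM, 2688 against 399 UPM, 467 against 35.4 UPM and 1980.2 against 504 UPM. Since these cells were set apart by a contractile gene, the values are a description.

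Isl1 was looked for in cells with and without Myl2. After thinning, 24 of 35 Myl2-positive and 46 of 67 Myl2-negative members held an Isl1 UMI in Ctrl E9.5, and 8 of 22 Myl2-positive and 26 of 40 Myl2-negative in cKO E9.5. At E8.5 the counts were 8 of 12 Myl2-positive and 9 of 16 Myl2-negative in Ctrl, and 2 of 10 Myl2-positive and 5 of 9 Myl2-negative in cKO. Isl1 was thus as frequent in Myl2-positive as in Myl2-negative control cells at E9.5, and less frequent in the Myl2-positive ones of cKO in these counts, which share their depth and were not tested. Tbx5, a factor of the first heart field and the inflow, was found in 4 of 35 Myl2-positive and 12 of 67 Myl2-negative cells in Ctrl E9.5 and in 1 of 22 Myl2-positive and 7 of 40 Myl2-negative in cKO E9.5. Sln had a UMI in 1 thinned cell over all 4 libraries, and Nppa in 3 or 4 cells of each.

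The E9.5 ratios between genotypes were also computed within both subsets, as a description. Myl2 itself was higher in cKO in the summed UMIs and its raw count moves with depth, so that the subsets of Ctrl and cKO hold differently selected cells. For Acta2 the log2 ratio was -0.64 (-0.75 to -0.54) in members with at least 5 Myl2 UMIs and -0.73 (-0.79 to -0.67) in the rest, and for Des -0.91 (-1.22 to -0.60) and -1.07 (-1.28 to -0.86). Myl9 had -0.77 (-0.98 to -0.57) and -1.04 (-1.18 to -0.91). Actc1 had -0.065 (-0.16 to 0.033), an interval that includes 0, in the Myl2-rich cells and -1.01 (-1.09 to -0.93) in the rest. Acta1 had -0.999 (-1.25 to -0.75) and -2.86 (-3.43 to -2.34), Hopx -0.55 (-1.11 to -0.0065) and -2.08 (-2.66 to -1.54), and Isl1 -2.09 (-3.25 to -1.07) and -0.62 (-0.90 to -0.35). Whether the subsets differed from each other was not tested.

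At E8.5 the same limit holds, since Myl2 differed by 2.18 and the cKO members were deeper. In the Myl2-rich cells, 7 of Ctrl and 10 of cKO, Actc1 was higher in cKO with 0.98 (0.85 to 1.11) and Acta2 with 0.49 (0.35 to 0.64). Among the rest, 24 of Ctrl and 9 of cKO, both were lower in cKO, Actc1 with -1.64 (-1.92 to -1.37) and Acta2 with -1.13 (-1.36 to -0.91), and so was Acta1 with -4.14 (-7.22 to -2.22). Des had 0.996 (0.50 to 1.51) and 0.46 (-0.16 to 1.08). Nppa at E9.5 rested on a pair of cells in each library: those of cKO were Myl2-rich and those of Ctrl were not, with 109 of 110 cKO UMIs and 6 of 101 Ctrl UMIs in Myl2-rich cells.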

How the data were processed

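The deposited values, raw UMI counts as the authors left them, cover 4 droplet libraries, 1 per genotype and stage. Per the labels and the submitters' processing notes, they were made with Cell Ranger 3.1.0 on mm10 (GRCm38), and the file headers of both E8.5 matrices name version 3.0.2. No normalization or cell annotation was part of the deposited counts. The 27514 Ensembl identifiers shared by both gene tables were used, holding 99.4 to 99.9% of the UMIs of a library. Every deposited barcode was kept, and the shallowest held 534 and 500 UMIs (Ctrl and cKO) at E8.5 but 4379 and 4217 at E9.5, so that shares of barcodes at the 2 stages rest on different minimums. No doublet caller was run: the limits on Epcam, Cdh5 and Pecam1 took that place. In an alternative, members above 2 times the median total of the members of their library were left out.

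UMIs were summed over members (Python 3.11.15, numpy 2.4.6, scipy 1.17.1) and given as UMIs per 1000000 of the sum (UPM). With 1 library per group no p-value was computed. Sums carry exact Poisson, ratios exact conditional binomial, shares Wilson or Clopper-Pearson and share differences Newcombe intervals at 95%. Genes needed 20 UMIs in both sums together, and a ratio against a sum of 0 used a floor of 3 UMIs. A gene counted as higher or lower at 2-fold or more with an interval that excluded 0. Cells were thinned to 10000 UMIs (seed 1) for shares. Ratios in the other cells had 0.5 UMIs added to each sum. TMM factors came from edgeR 4.0.16. The ratio step recovered known changes larger than 2-fold in simulated Poisson sums of well-counted genes. That simulation did not gather UMIs in single cells, so it does not check calls on such genes or on genes with few UMIs.

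Named were the members of 32 lists (253 genes) and, by size, the 5 highest and 5 lowest ratios and the 10 highest and 10 lowest after subtracting the other cells' ratio. Those genes needed at least 50 UPM in 1 sum, a UMI in 20% of members of the higher library, an interval excluding 0 and at least 20 members per library. Gm, Rik, mitochondrial, ribosomal protein, haemoglobin, X-inactivation and Y-linked genes were left out. The members and the lists were chosen with earlier results of these data known. Positions are of RefSeq genes on GRCm38.p6, matched by symbol for 285 of 287 genes. Some list members are not reported here by name. Alternatives covered stricter, looser and depth-scaled rules, high totals, TMM, thinning, equal weight per cell, subtraction of the other cells and other minimums.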

Additional observations from a re-analysis of the deposited data

Results flagged for a closer look

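The cKO over Ctrl log2 ratio had opposite signs at E8.5 and E9.5, with both intervals excluding 0 on the plain and on the TMM scale, for 13 listed genes of 138 measured at both stages. The difference between the stages was not tested, and each group holds 1 library. The same share over all genes is not given here, so 13 of 138 is not read as more than that background. Among contractile genes, in the order E8.5 and E9.5, Actc1 had 1.03 and -0.53, Acta1 0.50 and -1.13, Acta2 0.41 and -0.66, Actn2 1.45 and -0.70, Des 1.23 and -0.94, Tnnc1 0.86 and -0.32, Tpm1 0.24 and -0.38, Myl3 0.61 and -0.28 and Tagln 0.41 and -0.54. The matrix gene Vcan had 0.68 and -0.61 and the cyclin gene Ccna2 1.12 and -1.01. Pcna and Crabp1 went from lower to higher, with -0.51 and 0.71 and with -1.70 and 1.22. Beside these values, the share of Myl2-rich members was 22.6% in Ctrl and 52.6% in cKO at E8.5, and 13.2 and 21.5% at E9.5. Among E8.5 members with fewer than 5 Myl2 UMIs, Actc1 was lower in cKO, at 1739 UPM in Ctrl and 559 in cKO. So were Acta2 (2007 and 915), Tnnc1 (595 and 263), Tpm1 (3136 and 1801), Myl3 (537 and 157), Acta1 (149 and 8.48) and Tagln (471 and 360). Des was higher in cKO there, at 129 and 178 UPM. These members were set apart by Myl2 itself, as above. For Crabp1, 1 cKO E9.5 cell held 59.9% of the UMIs. The part of the Myl2-rich members or of that cell in the opposite signs was not tested.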

How the results depend on the processing

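No paired analysis was possible because each group held 1 library, and for the same reason no replicate could be left out. The lower share of cardiomyocytes in cKO at E9.5 stayed between -1.1 and -0.977 percentage points under 4 other rules, while the E8.5 difference was -0.434 at its lowest and changed sign under the looser rule, with an interval that still included 0. TMM scaling gave 224 higher and 294 lower genes for cKO at E9.5, and 410 and 245 between the control stages. Subtracting the other cells left 114 lower in cKO at E9.5, and gave 213 higher and 242 lower between stages. A minimum of 100 UMIs left 31 higher and 133 lower, 228 and 43, and 16 and 11 in the 3 comparisons, as fewer genes were tested. With no minimum, 254 were higher in cKO at E9.5 and 255 at E8.5. Thinning gave 99 higher and 72 lower at E8.5. All other counts stayed within 1.5 times.

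Of 132 single-gene ratios, 14 fell under 2-fold or lost their interval under TMM, 25 with thinning, 19 with the stricter and 19 with the looser rule, and 42 with subtraction, which also turned the sign of these called values: Acta1 0.51, Tbx3 0.00062, Fgf8 0.71, Pfkl 0.19, Ncam1 -0.046, Meox1 -0.15, Fdx1l 3.07, Srp54b 3.44, Sept2 0.22, Tfdp1 -0.89 and Cdh6 -0.42 for cKO at E9.5, Xirp1 -1.87, Nppb 1.14, Rspo3 -0.30, Bmp2 -0.21, Osr1 -0.88, Cox7a1 1.03, Ckb -1.17, Pgk1 0.41, Cdkn1c -0.46, Col3a1 -0.031, Sparc -0.42 and Ifitm1 0.73 between stages and Tcap -0.93 for cKO at E8.5. Crabp1 at E9.5 turned to -0.10 without high totals, and Osr1 between stages to -0.065 under the depth-scaled rule. Srp54b rests on the floor of 3 UMIs and Fdx1l on 1 UMI. Subtraction moved 17 of 62 list medians. The cause was not tested. With 19 to 114 cells per library, genes at a few UMIs per library could not be resolved.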
